A study of Mus musculus with 2 samples.

Results

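The genes described here are 38 genes of motile cilia and of multiciliogenesis, the process by which an airway cell makes centrioles in large number and builds a beating cilium on each. They were chosen by name from known roles in cilia; no level in these samples enters the rule, although earlier results of these data were known when they were chosen. All 38 were found among the 31053 genes of the expression tables. They comprise 4 transcription factors of ciliogenesis, 6 genes of centriole amplification, 21 genes of the axoneme (the microtubule shaft of the cilium), 2 genes of dynein assembly and nucleotide supply, and 5 further transcripts that are abundant in ciliated cells. Their levels were followed in lung cells of 2 mouse genotypes, all aged 5 weeks. Mice of the control group carried floxed alleles of Lkb1 (Lkb1f/f) and no Cre. Mice of the other group, called the Cre group here, carried the same floxed alleles and an Nkx2.1 Cre driver (Nkx2.1 Cre;Lkb1f/f). Lkb1, whose gene symbol is Stk11, encodes a kinase upstream of AMPK and its relatives. Nkx2-1 is expressed in the progenitors of the lung epithelium, so the driver acts in the lineage from which airway and alveolar epithelial cells arise. Cells of 3 mice were pooled into 1 droplet library per genotype, so genotype, mice and library cannot be told apart and no test between genotypes was possible.

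In the airway, Notch signalling keeps progenitors secretory, and cells that escape it switch on Gmnc and Mcidas, regulators that work with E2F factors. These start Myb, Foxj1 and the genes of deuterosomes, the structures on which new centrioles form in bulk. Once the centrioles have docked at the cell surface, FOXJ1 and RFX factors drive the genes of the axoneme: dynein arms, radial spokes, the central pair and the links between doublets. Centriole amplification is brief, so its genes mark cells in the act of becoming ciliated, whereas axonemal genes stay on in mature ciliated cells.

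RFX factors bind the ciliary genes at the X-box, and stretches of member promoters that hold the core letters of that motif are shown for members to which the results that follow return. RefSeq promoters (GRCm38.p6) matched 34 of the 38 members, at 39 start sites; Foxj1, Rsph1, Rsph4a and Tppp3 had no entry. The letters GTTGCC, on either strand and within 250 bases upstream, occurred at 12 of the 39 start sites (30.8%) and at 10.4% of the 32851 start sites in the table. Each stretch is given 5′ to 3′ on the strand of its gene, with GTTGCC, or GGCAAC where the match is on the opposite strand, in capitals. The Spag16 stretch also holds another match, on the opposite strand, which is left in lower case. Of the centriole amplification genes, Ccno (chr13:112987571-112987600, plus strand), Mcidas (chr13:112993661-112993690, plus strand) and Deup1 (chr9:15627908-15627937, minus strand) held it. The other 3 shown are Dynlrb2 (chr8:116504952-116504981, plus strand), Spag16 (chr1:69826855-69826884, plus strand) and Rfx2 (chr17:56831107-56831136, minus strand), 1 each for a dynein chain, the central pair and an RFX factor itself.
Ccno: acccgggctgcgGTTGCCacggtgacgaca
Mcidas: gggggaagccagGTTGCCaggttggttaac
Deup1: ccgcgtctccatGGCAACccactgggaacc
Dynlrb2: acttcctgcctgGTTGCCtagcaacggggg
Spag16: actaggcaacgcGTTGCCgtagtaactgcg
Rfx2: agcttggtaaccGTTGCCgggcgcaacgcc
The longer form, GTTGCC with GG after any 2 further bases, which contains the first motif, occurred at 3 start sites, those of Ccno, Deup1 and Drc1 (7.69% against 1.83%). The full X-box palindrome was searched only as GTTNCC and GGNAAC with any 2 bases between them. That form was at none (against 0.374%), and forms with other spacings or letters were not searched. Among the other 5 motifs searched on both strands, TAACNG, a core of MYB sites, was at 14 of the 39 start sites (35.9% against 19.8%). The forkhead letters TGTTTAC were at 2 (5.13% against 3.17%) and TTGTTTG at 3 (7.69% against 4.94%). CCAAT was at 14 (35.9% against 33.8%) and TATAAA at 4 (10.3% against 12.4%). A match describes these letters only. Ccno, Mcidas and Cdc20b are also neighbours: they lie on the plus strand of chromosome 13 within 103.394 kb (GRCm38), a span that holds 1 other protein-coding gene, Gpx8.

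After filtering, 12455 control cells (69097618 unique molecular identifiers, or UMIs, each a captured transcript) and 14675 Cre cells (74497805 UMIs) were compared, at medians of 3611 and 3250 UMIs. Levels are given as CPM, the UMIs of a gene per 1000000 UMIs summed over a cell class in a library. Values in parentheses after a level, share or ratio are exact 95% intervals, and these take in the error of counting alone. Each cell was classed from marker genes, and a class cut from such a score is a range and not a type. Ciliated-like cells were those with UMIs of at least 5 of 12 ciliated markers, none of which is a member. There were 92 such cells in the control library (0.739%) and 82 in the Cre library (0.559%), a log2 ratio of shares of -0.40 (-0.85 to 0.04). Some markers, such as Cfap45, Cfap52 and Lrrc23, are themselves ciliary genes. A cell that lost ciliary transcripts broadly would leave the class, so levels within it describe only cells that kept them. The gate cut through few cells: 11 control and 7 Cre cells held 3 or 4 of the markers, and 67 and 62 held 10 or more. All 12 markers were present in both libraries, and those of B, T, endothelial and fibroblast cells had a median share of 0 to 0.00788% of the UMIs of a ciliated-like cell. AT1 markers had median shares of 0.145% in control and 0.107% in Cre cells, AT2 markers 0.0831% and 0.0798%, and neutrophil markers 0.0155% and 0 (up to 3.90% in 1 control cell). Transcripts of club cells, the secretory cells of the airway, were in ciliated-like barcodes as well: 16 control and 19 Cre barcodes had at least 5% of their UMIs from club markers, and these deep barcodes held 49.4% and 51.1% of the UMIs of the class. They were kept, and values without them stand beside the results they touch. A total of 68 barcode sequences occurred in both libraries, of which 59 were kept in both and 1 was ciliated-like.

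Stk11, the targeted gene, stood at 69.0 CPM in control and 62.8 CPM in Cre ciliated-like cells, a ratio of 0.910 (0.665 to 1.24). It was lower in the alveolar classes, at 0.595 (0.524 to 0.675) in AT2-like and 0.598 (0.375 to 0.968) in AT1-like cells, and at 0.995 (0.734 to 1.35) in club-like cells. The background of this last class was lopsided. Of the genes measured there, 40.1% were higher and 1.65% lower, by at least 1.5-fold with an interval that left out 1. A ratio near 1 in that class therefore cannot be read as an unchanged level. The library kit reads the 3′ end of a transcript, which a deletion of other exons can leave in place, and the labels do not say which exons are floxed, so the deletion could not be checked from these levels.

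Most axonemal genes had most of their UMIs in the ciliated-like cells of both libraries; the exceptions were Cfap43 in both libraries and Rsph9, at 52.4% in the control and 38.4% in the Cre library. These cells held 1.85% of all control UMIs and 1.75% of all Cre UMIs, but for 11 of the 21 axonemal members they held at least 90% of the gene's UMIs in both libraries, with medians over the 21 genes of 93.9% and 92.1%. Dnah5, the heavy chain of the outer dynein arm, had 98.6% of its UMIs there in the control and 97.4% in the Cre library. Spag16 and Spag17, proteins of the central pair, had between 97.2% and 99.1% in either library. Of all 38 members, 32 had their highest level in ciliated-like cells in both libraries, among the 20 classes with at least 50 cells in each. Foxj1, the main switch of motile ciliogenesis, had 90.3% and 90.8% of its UMIs in these cells. Rfx2, Rfx3 and Myb, which also act in other tissues, had only 12.3% to 16.6%.

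Levels followed the same pattern along the classes. The mean log level of the 21 axonemal genes over the 40 combinations of class and library served as a reference profile, and the 10 non-member genes most like it had Pearson correlations of 0.993 to 0.994 (a description, since the points share libraries and depth). The most alike was Ankrd45, with 33.7 CPM in control and 31.4 CPM in Cre ciliated-like cells and all of its UMIs there in both libraries. It was followed by Ttll6, Fam81b, Elmod1, Ttll9, Gm281, Fam166b, 4933406B17Rik, Zfp474 and Armh1. Among members the same measure ran from 0.1004 for Plk4, the kinase of centriole duplication in all dividing cells, to 0.993 for Rsph4a, a radial spoke head protein. Deup1, the scaffold of the deuterosome, stood at 0.959, above the other centriole amplification genes.

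**Figure D1:**
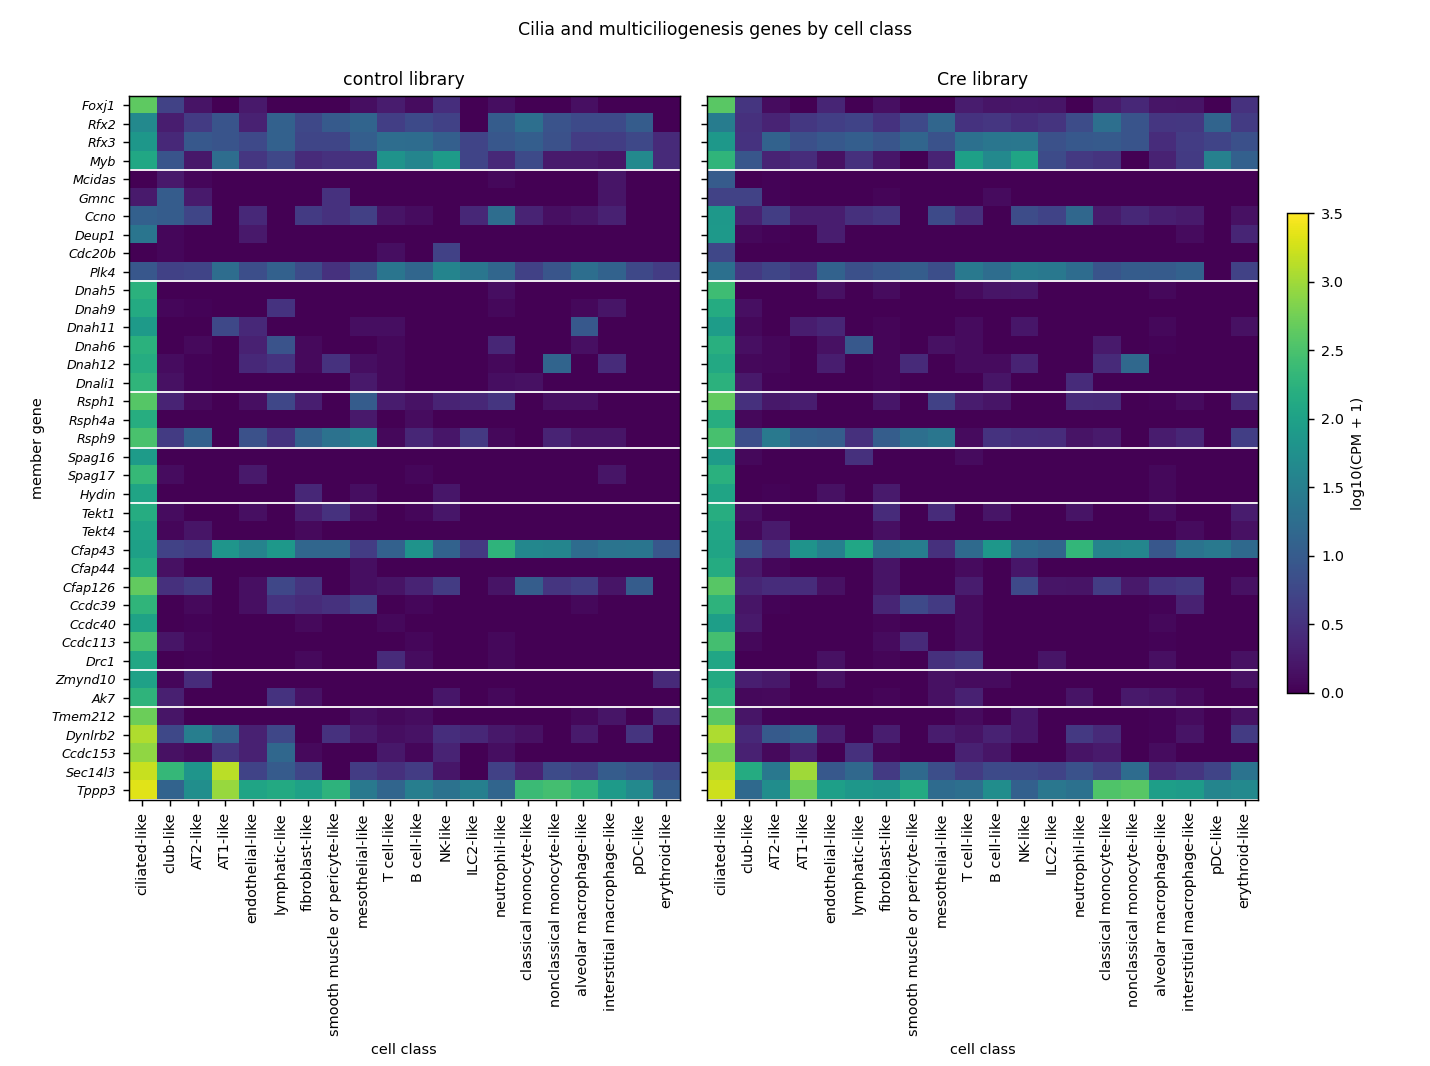
Level of each member (rows, log10 of CPM + 1) in the 20 cell classes with at least 50 cells in each library (columns), for the control library (left) and the Cre library (right); white lines separate the roles. The ciliated-like column stands apart for nearly all axonemal genes, while Cfap43, Sec14l3, Tppp3, Plk4, Rfx3 and Myb also show in other classes.

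In ciliated-like cells the axonemal program was at nearly the same level in both genotypes. The 21 axonemal members summed to 3841 CPM (3735 to 3950) in the control and 3791 CPM (3686 to 3898) in the Cre library, a ratio of 0.987 (0.949 to 1.03). A gene was counted as higher or lower where it differed at least 1.5-fold with an interval that left out 1, among genes with at least 20 UMIs over both libraries. By that rule 0 of the 21 axonemal members were higher and 0 were lower, where 9.61% of the 9060 genes measured in these cells were higher and 4.15% lower. Their log2 ratios, with 5 CPM added to each level, ran from -0.37 to 0.55 with a median of -0.02, beside a median of 0.12 for all genes. Without the barcodes rich in club transcripts the levels were higher in both libraries, at 6108 CPM and 5802 CPM, and the ratio was 0.9499 (0.908 to 0.994). Single cells varied far more than the libraries. The axonemal sum had a median of 5971 CPM (quartiles 3162 and 7109) over the control cells and 5360 CPM (quartiles 2740 and 6959) over the Cre cells, and 1 cell in each library had no axonemal UMI at all.

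Among the dynein arm genes, Dnah5 had the largest difference, with 172 CPM (150 to 196) in control and 254 CPM (228 to 283) in Cre cells. Its ratio of 1.48 (1.24 to 1.76) lay just under the 1.5-fold limit. It was 1.53 (1.28 to 1.82) without 3 Cre cells described below, and 1.36 (1.12 to 1.66) without the barcodes rich in club transcripts. The other outer arm heavy chains, Dnah9 and Dnah11, had ratios of 1.02 (0.821 to 1.26) and 1.05 (0.797 to 1.39). The inner arm genes Dnah6, Dnah12 and Dnali1 had ratios between 0.863 and 0.933, each with an interval that includes 1.

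The radial spoke heads, which relay signals from the central pair to the dyneins, differed little. Rsph1 stood at 379 CPM and 451 CPM, with a ratio of 1.19 (1.05 to 1.34). Rsph4a and Rsph9 had ratios of 1.01 (0.822 to 1.23) and 0.972 (0.844 to 1.12). In the central pair, Spag17 was at 217 CPM in control and 167 CPM in Cre cells, a ratio of 0.769 (0.641 to 0.921), whereas Spag16 and Hydin had ratios of 0.986 (0.747 to 1.30) and 0.991 (0.780 to 1.26).

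The 9 genes of the doublet, the molecular ruler and the linkers lay between 0.842 and 1.14. Cfap126, known as Flattop and needed to dock basal bodies, was at 460.0 CPM in control and 387 CPM in Cre cells, the lowest ratio of the 9 (0.842, 0.746 to 0.9496). The tektins Tekt1 and Tekt4, filaments inside the doublet, had ratios of 1.04 (0.847 to 1.28) and 1.11 (0.873 to 1.41). Ccdc39 and Ccdc40, which together set the spacing of the dynein arms, had 0.941 (0.784 to 1.13) and 0.872 (0.674 to 1.13). Cfap43 and Cfap44, partners in tethering an inner arm, had 1.14 (0.893 to 1.47) and 0.998 (0.810 to 1.23). Ccdc113 had 0.913 (0.791 to 1.05) and Drc1, of the nexin-dynein regulatory complex, 0.916 (0.729 to 1.15).

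Of the 2 genes that supply the axoneme, Ak7, an adenylate kinase, had the same level within counting error, at 187 CPM in control and 184 CPM in Cre cells. Zmynd10, a factor of dynein arm assembly in the cytoplasm, was at 101 CPM and 134 CPM, a ratio of 1.33 (1.05 to 1.68). That difference sat in 3 cells, since 26.9% of the Cre UMIs of Zmynd10 came from them and the ratio without them was 1.03 (0.7995 to 1.32).

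The 5 other transcripts abundant in ciliated cells were lower by a modest amount. They summed to 6374 CPM in control and 5140 CPM in Cre cells, a ratio of 0.806 (0.781 to 0.833), and all 5 had ratios under 1, although none reached 1.5-fold. Ccdc153, a coiled-coil protein of cilia, was lowest, at 833 CPM and 578 CPM with a ratio of 0.694 (0.631 to 0.762). Tppp3, a protein that promotes tubulin assembly, was at 2176 CPM and 1691 CPM (0.777, 0.734 to 0.822). Tmem212 had 0.779 (0.694 to 0.874) and Sec14l3, a lipid-binding protein, 0.804 (0.754 to 0.857). Without the barcodes rich in club transcripts Sec14l3 was at 0.927 (0.860 to 0.999) and Ccdc153 at 0.706 (0.634 to 0.786). Dynlrb2, a light chain of dynein, had 0.952 (0.886 to 1.02). The 3 Cre cells described below held 62, 74 and 96 of its 1510 Cre UMIs, so the other Cre cells stood lower than this ratio.

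Of the transcription factors, Foxj1 was at 424 CPM (389 to 461) in control and 400.3 CPM (367 to 436) in Cre ciliated-like cells, a ratio of 0.944 (0.836 to 1.07). It was detected in 89 of 92 control cells and 75 of 82 Cre cells, or in 45.5% and 40.5% of cells after each was thinned to 1000 UMIs. Rfx3 had 1.02 (0.756 to 1.38). Rfx2 counted as lower, with 56 UMIs (43.9 CPM) in control and 37 UMIs (28.3 CPM) in Cre cells and a ratio of 0.645 (0.414 to 0.995). It did not count as such without the barcodes rich in club transcripts, at 0.752 (0.461 to 1.22), nor without the 3 Cre cells described below, at 0.648 (0.412 to 1.01). Myb counted as higher, with 121 CPM in control and 193 CPM in Cre cells and a ratio of 1.59 (1.29 to 1.95). Without those 3 Cre cells, which held 36.9% of its UMIs, Myb was at 1.06 (0.847 to 1.34), and without the barcodes rich in club transcripts at 1.49 (1.17 to 1.90).

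**Figure D2:**
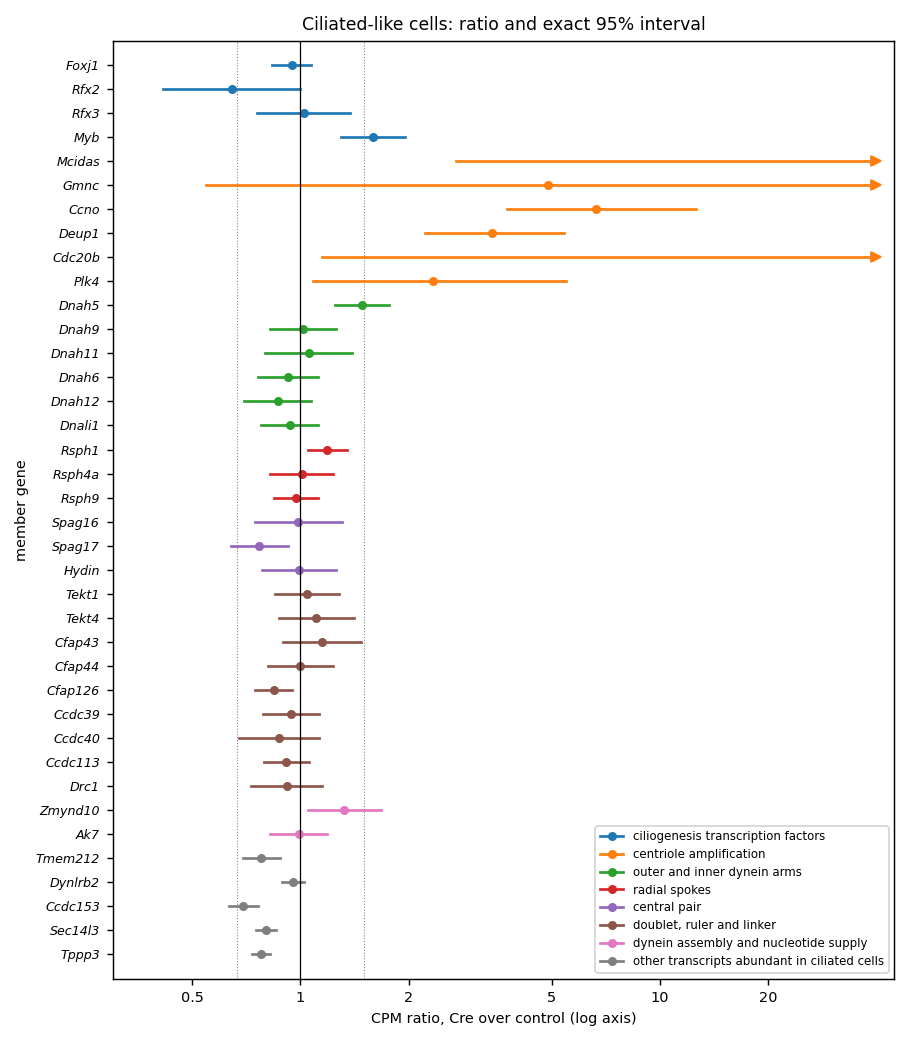
Ratio of CPM in ciliated-like cells, Cre over control (log axis), for each member, with its exact 95% interval and coloured by role; arrows mark intervals that run past the axis, dotted lines mark 1.5-fold, and a member with 0 control UMIs has no point. Axonemal genes lie close to 1, and the centriole amplification genes lie to the right.

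Centriole amplification genes had more UMIs in Cre than in control ciliated-like cells. The 6 members summed to 53 UMIs (41.5 CPM, 31.1 to 54.3) in the control and 240 UMIs (184 CPM, 161 to 208) in the Cre library, a ratio of 4.42 (3.27 to 6.07). Ccno, a cyclin-like protein needed to make centrioles in number, went from 14 UMIs (10.97 CPM) to 95 UMIs (72.7 CPM), a ratio of 6.63 (3.76 to 12.6). Deup1 went from 28 UMIs (21.9 CPM) to 98 UMIs (75.01 CPM), a ratio of 3.42 (2.23 to 5.41). Plk4, which starts every new centriole, had 10 and 24 UMIs, a ratio of 2.34 (1.08 to 5.49). With Myb, these 3 genes are the 4 members counted as higher among the 35 members with at least 20 UMIs in this class, and Rfx2 is the 1 counted as lower. Among all 9060 measured genes 9.61% were higher and 4.15% lower, shares near those of the members as a whole. The 3 members below that limit belong to the same group. Mcidas, the coactivator that starts the program, had 0 UMIs in control and 12 in Cre cells. That is 3.91 times the level that a floor of 3 counts would give in the control sum. Cdc20b, a deuterosome component, had 0 and 6 UMIs, or 1.95 times that floor. These 2 values are not lower limits of an interval. Gmnc had 1 and 5 UMIs, a ratio of 4.88 (0.546 to 231).

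Most of the group's UMIs in Cre ciliated-like cells came from 3 cells. They were the only ciliated-like cells with UMIs of at least 3 of the 5 genes Mcidas, Gmnc, Ccno, Deup1 and Cdc20b, and were picked out after the values were seen. They held 169 of the 240 UMIs of the group (70.4%), all 12 of Mcidas, 82.1% of Ccno and 59.2% of Deup1. Without them the ratio of the group was 1.39 (0.960 to 2.02), that of Ccno 1.26 (0.584 to 2.76) and that of Deup1 1.48 (0.892 to 2.49). As the cells were picked on these genes in 1 library, leaving them out lowers the ratios by construction. Before thinning, at least 1 of the 5 genes was in 29 of 92 control ciliated-like cells (31.5%, 22.2 to 42.0). In the Cre library it was 42 of 82 (51.2%, 39.9 to 62.4).

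Each of the 3 cells held most of the early genes at once. The first held 5 UMIs of Mcidas, 32 of Ccno, 18 of Deup1, 6 of Plk4, 31 of Myb and 35 of Foxj1 among its 28062 UMIs. The second held 2, 22, 26, 3, 27 and 27 UMIs of the same genes among 23734, and the third 5, 24, 14, 5, 35 and 26 among 24227. Their axonemal members were already at 4419, 4508 and 5366 CPM, between the quartiles of the Cre ciliated-like cells. Of the 5 transcripts abundant in ciliated cells, 4 were lower in the sum of the 3 cells. Tppp3 was at 776 CPM over the 3 cells and 1747 CPM over the other 79 Cre ciliated-like cells. Sec14l3 was at 237 and 1375 CPM, and Tmem212 at 26.3 and 429.9 CPM. Ccdc153 was at 316 and 594 CPM, but its UMIs were uneven among the 3 cells, at 20, 1 and 3. Dynlrb2, of the same group, was higher in the 3 cells, at 3052 against 1039 CPM. Within the axoneme the genes were uneven, since Tekt1 stood at 526 CPM in the 3 cells against 128 CPM in the others, while Hydin stood at 26.3 against 115 CPM and Dnah11 at 26.3 against 87.8 CPM. At the depth of these 3 cells the values of 26.3 CPM, for Tmem212, Hydin and Dnah11, are only a few UMIs each. The cells were chosen on the early genes, so these values describe them and test nothing. Club markers made up 7.44%, 18.8% and 0.0784% of their UMIs.

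Control cells with several of the early genes were found elsewhere. No control ciliated-like cell had 3 of the 5 genes (0 of 92, which allows a share of up to 3.93%), but 2 control club-like cells did. The first held 4 UMIs of Mcidas, 42 of Ccno, 1 of Deup1, 25 of Foxj1 and 20 of Myb among 39994 UMIs, with 3 axonemal UMIs and 2 of the 12 ciliated markers. The second held 1 of Mcidas, 3 of Gmnc and 9 of Ccno among 92379 UMIs, with neither Foxj1 nor axonemal UMIs. The Cre library had no such cell among 237 club-like cells, which allows up to 1.54%. Cells with at least 2 of the genes numbered 13 in the control and 10 in the Cre library, of which 5 and 9 were ciliated-like and 6 and 0 club-like. Summed over ciliated-like and club-like cells, the group's ratio was 1.61, a log2 ratio of 0.69 (0.42 to 0.95). That sum takes in all club-like cells, of which 51 of 209 control and 22 of 237 Cre cells held at least 1 of the 5 genes. All genes measured in club-like cells had a median ratio of 1.48. How much of the change in the group's ratio came from the cells with several early genes was not tested.

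**Figure D3:**
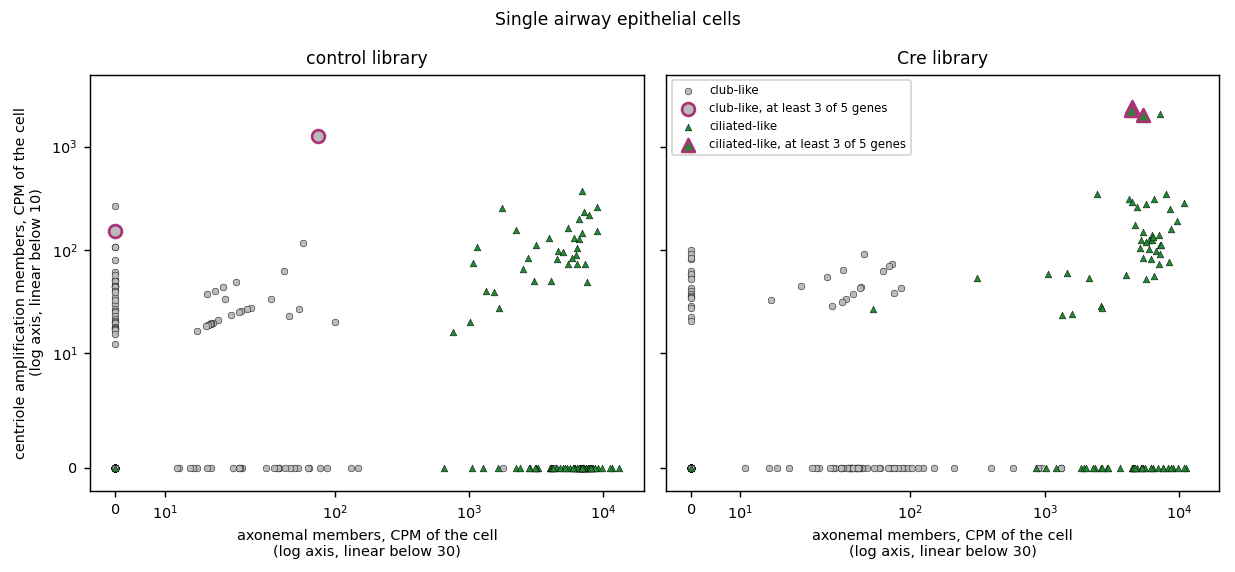
Each point is a cell, ciliated-like (triangles) or club-like (circles), by the CPM of the 21 axonemal members (horizontal) and of the 6 centriole amplification members (vertical); both axes are logarithmic above a short linear stretch, and large outlined points have at least 3 of the 5 early genes. In the Cre library the 3 outlined cells (of which 2 nearly coincide) are ciliated-like with axonemal levels of 4419 to 5366 CPM, and in the control library the 2 outlined cells are club-like with axonemal levels of 0 and 75.01 CPM.

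Other genes of centriole formation moved with the same cells. In the general centriole duplication list 4 of 17 measured genes were higher and 0 lower in Cre ciliated-like cells, beside 9.61% and 4.15% of all genes. Stil, which recruits the cartwheel of a new centriole, had 0 UMIs in control and 25 in Cre cells, of which the 3 cells held 21. Cep152, the receptor of PLK4, had 1 and 11 UMIs, of which they held 7, and Poc1a had 6 and 33, of which they held 22. Ccna1, a cyclin, went from 5 UMIs in 3 control cells to 53 UMIs in 15 Cre cells, and the 3 cells held only 10 of these. Its ratio was 10.4 (4.17 to 33.2), and 8.92 (3.54 to 28.9) without the 3 cells, although 1 Cre cell gave 34.0% of its UMIs. Cdk1 had 7 and 33 UMIs and Ccnb1 0 and 16, of which the 3 cells held 21 and 10. Of 8 measured cell cycle genes 4 were higher and 1 was lower, with a median log2 ratio of 0.70. Top2a, a topoisomerase of dividing cells, had 25 and 44 UMIs, of which the 3 cells held 25, and Cdc20 had 5 and 20, of which they held 17. Mki67, another marker of dividing cells, had 13 and 16 UMIs and none in the 3 cells, and Ube2c was lower, with 41 and 17 UMIs. Of the control UMIs, 12 of Mki67 and 20 of Top2a came from 1 barcode rich in club transcripts. Without the barcodes rich in club transcripts Mki67 had 1 and 1 UMIs and Top2a 3 and 23. Ube2c was not lower there, with 1 and 8 UMIs (8.09, 1.08 to 359).

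The other ciliary gene lists had few genes past the limit, beside 9.61% of all genes higher, 4.15% lower and an all-gene median log2 ratio of 0.12. For intraflagellar transport, the freight system of the cilium, 2 of 24 measured genes were higher and 0 lower, with a median log2 ratio of 0.10. Ift20, Ift27, Ift43, Ift74 and Dync2li1 had ratios of 0.951 to 1.05. For the BBSome, a coat complex of ciliary cargo, 0 of 9 were higher or lower (median 0.09), and for the dynein assembly factors 0 of 8 (median 0.15). Of 47 further axonemal genes 3 were higher and 1 was lower (median -0.02). The highest of these, Lrrc23, a radial spoke gene that also served as a gate marker, was at 110 CPM in control and 233 CPM in Cre cells, a ratio of 2.12 (1.73 to 2.61), or 1.59 (1.28 to 1.98) without the 3 cells. Of the Notch pathway genes 4 of 8 were lower and 0 higher (median -0.44), where 4.15% of all genes were lower. Hes1, a repressor that Notch switches on, was at 1045 CPM in control and 492 CPM in Cre ciliated-like cells, a ratio of 0.471 (0.428 to 0.518), and at 0.484 (0.431 to 0.541) without the barcodes rich in club transcripts. Nrarp, a feedback inhibitor of Notch, had 23 and 6 UMIs, a ratio of 0.255 (0.0849 to 0.644), but 3 and 0 UMIs without those barcodes, and did not count as lower there. Notch1 counted as lower with and without them, at 0.502 (0.356 to 0.701) and 0.520 (0.336 to 0.793), and Notch2 only with them, at 0.608 (0.365 to 0.996) and 0.778 (0.412 to 1.45). The Notch ligands Jag1 and Jag2 had ratios of 0.826 (0.656 to 1.04) and 1.05 (0.743 to 1.48).

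Outside the ciliated-like cells, several members had levels of their own that differed between the genotypes, among them members in AT2-like cells, the surfactant-making cells of the alveolus. Of the 38 members 12 had at least 20 UMIs there, of which 1 was higher and 5 were lower, where 17.2% of the 12457 measured genes were higher and 4.66% lower. Dynlrb2 was at 30.9 CPM (422 UMIs in 324 of 1411 cells) in the control and at 8.67 CPM (119 UMIs in 108 of 1663 cells) in the Cre library, a ratio of 0.281 (0.227 to 0.345). The cells with a UMI were 23.0% and 6.49%, or 3.08% and 1.11% after thinning to 1000 UMIs, above the thinned shares of 0.0577% and 0.141% in B cell-like cells. No cell held more than 4 UMIs of it, so the signal was spread over many cells. Dynlrb1, its more widely expressed paralogue, was at 174 CPM and 242 CPM in the same cells (1.39, 1.32 to 1.47).

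Sec14l3 followed Dynlrb2, with 66.6 CPM in control and 24.1 CPM in Cre AT2-like cells, a ratio of 0.362 (0.319 to 0.411). It was found in 531 and 231 cells, or in 6.08% and 2.22% of thinned cells. Club transcripts in AT2-like cells moved the same way, with Scgb1a1 at 1501 CPM and 776 CPM and a median share of all 12 club markers of 0.173% and 0.117%, and their part in both results was not tested. Tppp3, the other abundant member in these cells, did not follow: it was at 52.6 CPM and 51.5 CPM, a ratio of 0.978 (0.881 to 1.09). Rfx2 (42 and 17 UMIs, ratio 0.403, 0.215 to 0.724), Zmynd10 (24 and 9 UMIs, 0.374, 0.153 to 0.833) and Cfap126 (41 and 24 UMIs, 0.583, 0.337 to 0.988) counted as lower at low levels. Rfx3 stood at 8.19 CPM and 11.5 CPM (1.41, 1.10 to 1.81).

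Rsph9 went the other way in AT2-like cells, from 10.97 CPM (150 UMIs in 142 cells) to 25.1 CPM (344 UMIs in 290 cells), a ratio of 2.28 (1.88 to 2.79). The thinned shares of cells with a UMI were 0.976% and 2.101%. The sum of the axonemal members in AT2-like cells was 18.9 CPM and 31.6 CPM, a ratio of 1.68 (1.43 to 1.96), and Rsph9 made up most of it, with 150 of 258 and 344 of 434 UMIs. Dnah5 had 0 UMIs in AT2-like cells of either library, and the median share of ciliated markers was 0 in both. Rsph9 overlaps Mrps18a, a mitochondrial ribosomal gene on the opposite strand, and whether reads were counted by strand is not given in the sources used here. Mrps18a was at 34.5 CPM and 47.5 CPM in these cells (1.38, 1.22 to 1.56).

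AT1-like cells are flat and line the alveolus, and 2 members there were abundant. Sec14l3 was at 1362 CPM in control and 1007 CPM in Cre AT1-like cells, a ratio of 0.739 (0.668 to 0.819), in 105 of 143 and 253 of 362 cells. Tppp3 counted as lower, at 919 CPM and 537 CPM with a ratio of 0.584 (0.513 to 0.666). It was 1 of the 3 members with at least 20 UMIs there, and 4.90% of the 7674 measured genes were lower and 8.11% higher. Of the 12 ciliated markers 11 had no UMI in control and 7 had none in Cre AT1-like cells. Scgb1a1 was at 1615 CPM and 1172 CPM in the same cells, and its part in these differences was not tested.

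Club-like cells are the source of new ciliated cells in the airway, and here 2 members counted as higher and 4 as lower among 12 measured. The background was lopsided, with 40.1% of genes higher and 1.65% lower, and Scgb1a1, the main secretory product, fell from 588986 to 422286 CPM of the class. Gmnc was at 9.29 CPM (62 UMIs in 44 of 209 cells) in control and 3.95 CPM (21 UMIs in 16 of 237 cells) in Cre cells, a ratio of 0.425 (0.246 to 0.706). Median depth differed too, at 37254 UMIs per control and 23771 per Cre cell, and after thinning to 1000 UMIs only 1.02% of control and 0 of 218 Cre cells held a UMI of Gmnc, too few to compare. Ccno had 64 and 6 UMIs (0.118, 0.0416 to 0.270), but the 2 control cells with several early genes gave 42 and 9 of the 64, and without them it had 13 and 6 UMIs and did not count as lower (0.567, 0.177 to 1.60). Without the same 2 cells Foxj1 had 1 and 13 UMIs (15.97, 2.40 to 679), under the limit of 20 UMIs. Myb then had 27 and 41 UMIs and would count as higher (1.87, 1.12 to 3.15). With all cells kept, neither Foxj1 nor Myb counted as higher or lower. Dynlrb2 had 32 and 8 UMIs (0.313, 0.125 to 0.694), with 11 of the 32 in 1 cell. Sec14l3 was at 212 CPM and 141 CPM (0.665, 0.608 to 0.727), the same direction as in AT2-like cells. The 2 counted as higher were Rsph9, with 20 and 32 UMIs (2.01, 1.11 to 3.70), and Cfap43, with 26 and 36 UMIs (1.74, 1.02 to 2.99), beside a median ratio of 1.48 for all genes of the class. The axonemal sum was 12.9 and 21.2 CPM, a ratio of 1.65 (1.23 to 2.21) or a log2 ratio of 0.72, which was 1.56 when ciliated-like cells had to hold 8 markers.

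**Figure D4:**
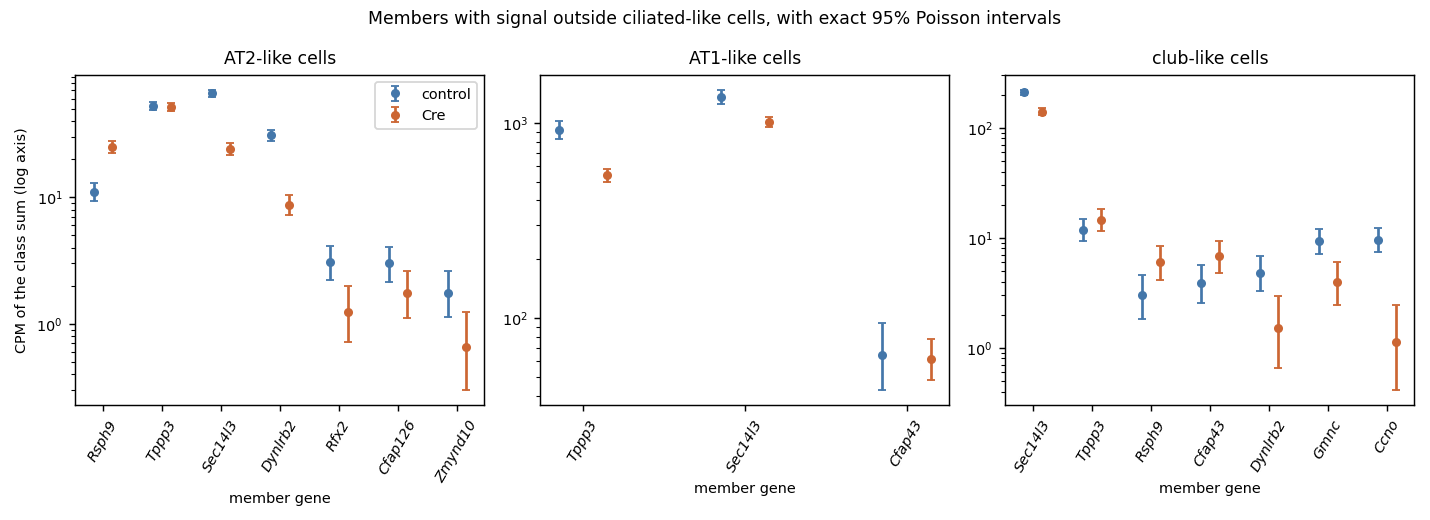
Level (CPM of the class sum, log axis) of members with signal outside ciliated-like cells, in AT2-like, AT1-like and club-like cells, for the control (blue) and the Cre library (orange), with exact 95% Poisson intervals. Dynlrb2 and Sec14l3 lie lower in Cre AT2-like cells and Rsph9 higher, while Tppp3 differs in AT1-like and hardly in AT2-like cells.

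Some members had most of their UMIs in immune or stromal cells. Among the 20 classes with at least 50 cells in each library, Cfap43 was highest in neutrophil-like cells. Its levels there were 186 CPM in control and 207 CPM in Cre cells, and the ciliated-like cells held only 5.14% and 8.02% of its UMIs. It was in 768 of 1938 and 309 of 1082 neutrophil-like cells. In GENCODE M21 the Cfap43 gene (chromosome 19, 47736857 to 47919287, minus strand) overlaps Itprip on the same strand. Itprip was not analysed here, and reads from the shared stretch cannot be told apart, so the neutrophil level of Cfap43 is uncertain as to its gene.

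Myb, which also maintains blood progenitors and lymphocyte precursors, was at 82.7 CPM and 112 CPM in NK-like cells and at 62.5 CPM and 95.2 CPM in T cell-like cells. Among the 20 classes with at least 50 cells in each library, Plk4 was highest in NK-like cells, at 37.4 CPM and 27.5 CPM. Ciliated-like cells held 1.42% and 3.13% of its UMIs. Thymic-type T-like cells, 14 in control and 198 in Cre, were too few in control to be among these classes. There Myb was at 886 CPM and 556 CPM, and Plk4 at 0 and 60.4 CPM. Ccno was at 16.6 CPM and 13.8 CPM in neutrophil-like cells, above its 10.97 CPM in control ciliated-like cells. Among the 20 classes Rfx2 was next highest in classical monocyte-like cells, at 18.1 CPM and 18.2 CPM. The ciliated-like cells thus held a small part of the UMIs of these 4 genes, apart from Ccno in the Cre library (35.1%).

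Among the dynein heavy chains, 3 had at least 5 CPM in another class of 1 or both libraries. Dnah6 was at 6.79 CPM in control and 8.12 CPM in Cre lymphatic-like cells. Dnah12 was at 12.5 CPM and 14.4 CPM in nonclassical monocyte-like cells, a ratio of 1.15 (0.622 to 2.08). Dnah11 was in alveolar macrophage-like cells of the control library, with 41 UMIs in 36 of 525 cells (8.10 CPM), and had 2 UMIs in 2 of 1046 Cre cells (0.192 CPM), a ratio of 0.0237 (0.00277 to 0.0911). In that class 6 of the 8 members with at least 20 UMIs were lower and 0 higher, where 10.4% of the 11159 measured genes were lower and 6.86% higher. The others that were lower were Plk4 (0.523, 0.388 to 0.706), Cfap43 (0.485, 0.353 to 0.667), Rfx2 (0.504, 0.283 to 0.899), Sec14l3 (0.437, 0.218 to 0.869) and Tppp3. Dnah11 overlaps Cdca7l on the opposite strand, which was at 20.4 CPM and 11.99 CPM in these cells (0.589, 0.450 to 0.772), and the part of that overlap in the counts was not tested. Tppp3 was at 194 CPM in control and 90.05 CPM in Cre alveolar macrophage-like cells (0.464, 0.423 to 0.507), where Scgb1a1 was at 1296 CPM and 955 CPM.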

How the data were processed

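Single-cell libraries were made with the 10x Chromium 3′ v3 kit, per the labels' protocols. The authors deposited raw UMI counts per gene and barcode, whole numbers with no normalization. Cell Ranger 3.1.0, STAR and mm10 are named, per the submitters' processing notes, and software version 3.0.0 stands in the matrix files, per the file headers. Gene annotation, filters and use of strand were not given in the sources used here. The libraries held 13587 control barcodes (74219499 UMIs) and 16821 Cre barcodes (81598779 UMIs). Barcodes with at least 200 genes, at least 500 UMIs and at most 20% mitochondrial UMIs were kept, and those that Scrublet (in scanpy 1.11.5, expected rate 0.06) called doublets, 420 (3.09%) and 454 (2.70%), were removed. Free RNA was not subtracted.

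Ciliated-like cells had UMIs of at least 5 of 12 markers. Each other cell took the class of 28 with the highest mean standardised marker level, if that was at least 0.5, led by 0.2 and rested on at least 3 markers; 7.16% of control and 10.3% of Cre cells stayed unassigned. This scoring rule was chosen after the files had been seen. UMIs were summed per class and library. With 1 library per genotype there was no test: Poisson, conditional and Clopper-Pearson 95% intervals (scipy 1.17.1) cover counting error only, and were checked on simulated data. Gene lists are described by the median of log2((Cre CPM + 5)/(control CPM + 5)) over genes with at least 20 UMIs. All 38 members may be named, of other lists up to 5 genes with the highest control ciliated-like level and any past 2-fold with an interval beyond 1.5, and the 10 genes most like the axonemal profile; other genes named, such as paralogues, overlapping genes and Nrarp, were chosen after their values were seen. The members, lists and tests were chosen with earlier results of these data known. Alternatives were other cell filters, doublets kept, Leiden clusters (leidenalg 0.10.2) made without the members, a gate of 8 markers, thinning to 1000 UMIs, 20 CPM added, no UMI minimum, an epithelial denominator, and 3 early genes in place of 2. Gene positions are from GENCODE M21 (GRCm38), which held all 38 members.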

Additional observations from a re-analysis of the deposited data

Results flagged for a closer look

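Among barcodes removed by the filters, 3 in the control and 1 in the Cre library held at least 5 of the 12 ciliated markers. These barcodes are outside the comparisons of the report, and they stood out because ciliated transcripts were present in them: the axonemal members were at 5222 CPM (165 UMIs) in the 3 control barcodes and at 4317 CPM (50 UMIs) in the 1 Cre barcode. Of the 3 control barcodes 1 was called a doublet. They made up 0.265% (0.0547 to 0.773) of the 1132 removed control barcodes and 0.0466% (0.00118 to 0.259) of the 2146 removed Cre barcodes. A floor of 3 barcodes would be a share of 0.265% and 0.140%.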

How the results depend on the processing

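Of 64 recomputed values 49 stayed within their counting interval or within 1.5 times the count, and 15 moved. The ratio of the axonemal sum in ciliated-like cells (log2 -0.02) was 0.0858 with the stricter cell filter, 0.0789 with clusters, 0.0819 with a gate of 8 markers and 0.0512 after thinning to 1000 UMIs, so its sign changed; its own interval includes 0. The median over the axonemal members was 0.10 with the stricter filter, 0.0766 with clusters and 0.0626 with the stricter gate. The centriole amplification sum (log2 2.15) was 2.89 after thinning, 0.47 without the 3 cells with at least 3 of the 5 early genes and 0.69 with club-like cells added; the last 2 alternatives were chosen after seeing the data, as was leaving out barcodes rich in club transcripts, which gave 1.91. The axonemal sum in club-like cells (0.72) was 1.56 with the stricter gate, which moves cells with fewer ciliated markers out of the ciliated-like class. Cells with early genes (13 control, 10 Cre) were 0 and 4 after thinning and 2 and 3 when 3 genes were asked for, so their order turned, with fewer UMIs and a harder rule by construction. The share of ciliated-like cells kept its direction, at log2 ratios of -0.55 to -0.22. Its counting interval included 0 in the main setting, with the other cell filters, with doublets kept and after thinning. It left out 0 with clusters (-0.99 to -0.12) and with an epithelial denominator (-0.96 to -0.07). It did so narrowly with a gate of 8 markers (-0.97 to -0.006) and without barcodes rich in club transcripts (-1.01 to -0.006). No paired analysis was possible because each genotype has 1 pooled library. Depth limits the early genes: Mcidas, Gmnc and Cdc20b had 12 or fewer UMIs per library in ciliated-like cells.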
